A study of Homo sapiens with 6 samples.

Results

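Respiratory complex I genes were examined in ChIP-Seq lists of N-Myc and JMJD6 from the MYCN-amplified neuroblastoma line CHP-134, an established human cell line. The members were the autosomal protein-coding genes whose symbol starts with NDUF, which gave 46 of 19220 autosomal protein-coding genes in the annotation. N-Myc is the Myc family transcription factor of neuroblastoma, and JMJD6 is a Jumonji-domain enzyme studied as its partner. Each protein was precipitated in 3 replicates, N-Myc with the antibody sc-53993 after cross-linking with formaldehyde alone, and JMJD6 with the antibody ab64575 after double cross-linking with DSG and formaldehyde. The antibody and the cross-linking therefore cannot be told apart in any difference between the proteins. All samples came from 1 cell line, no sample was treated, and the labels do not say whether the replicates were separate cultures.

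The deposited files list where peaks were found in all 3 replicates and which promoters, super-enhancers and typical enhancers the authors took as bound. Positions and gene symbols are all they contain. The lists therefore do not give the depth behind an entry, the spread between replicates could not be computed, and no test between the proteins was made. The N-Myc lists are much longer than the JMJD6 lists, with 10172 against 561 common peaks and 5114 against 177 promoters. A gene was called bound at its promoter where its symbol stood beside a listed promoter, which spans 1 kb on each side of a RefSeq start site.

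Complex I, the NADH:ubiquinone oxidoreductase, is the first and largest enzyme of the mitochondrial respiratory chain. It takes electrons from NADH, passes them along iron-sulfur clusters in a matrix arm to ubiquinone, and pumps protons through a membrane arm. Core subunits carry out catalysis, accessory subunits surround them, and assembly factors build the enzyme without being part of it. The core subunits of the proton pump are encoded in mitochondrial DNA, and the NDUF genes supply the rest from the nucleus. Myc proteins bind DNA as dimers with MAX, and their preferred site is the canonical E-box, CACGTG.

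N-Myc stood at the promoter of 22 of the 46 NDUF genes (47.8%), beside 17.8% of all autosomal protein-coding genes. JMJD6 stood at none of them, beside 0.635% of all genes, and a promoter bound by both proteins was also found at none, beside 0.291% of all genes. A count of 0 of 46 allows a share of up to 6.52%, which lies above both backgrounds, so fewer JMJD6-bound promoters than among other genes could not be detected in a group of this size. The N-Myc-bound genes were spread over the catalytic arm, both parts of the membrane arm and the assembly factors, as the plot of members by list shows.

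**Figure D1:**
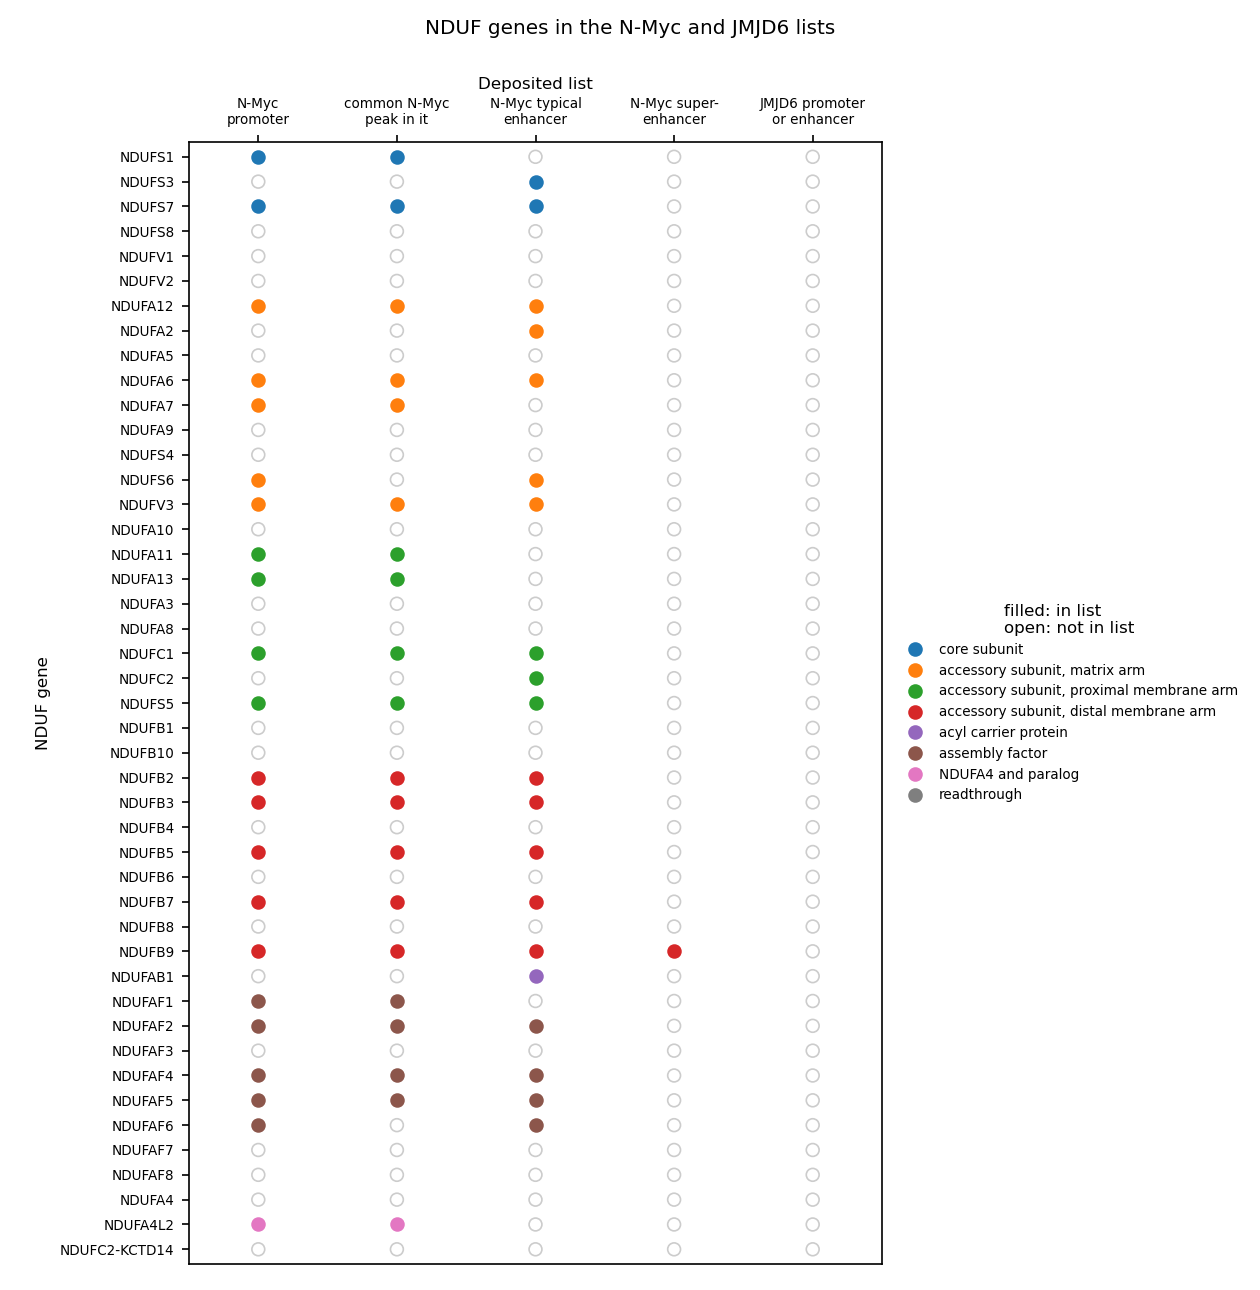
Each row is 1 NDUF gene, colored by role, with 45 of the 46 members drawn, and each column is 1 deposited list or the presence of a common N-Myc peak in the listed promoter. Filled points mark genes in the list: 22 have an N-Myc promoter, 20 of these hold a common N-Myc peak, 20 genes have an N-Myc typical enhancer, 1 has an N-Myc super-enhancer, and the JMJD6 column is empty.

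The N-Myc peaks at 9 of these genes contained a canonical E-box. The sequences around 8 of them show where the motif lies under the peak, and are given from the E-box nearest to its peak center to the farthest. They come from GRCh37 (hg19) and are written 5′ to 3′ on the strand of the gene, 60 bases each, with the E-box in capitals. NDUFA7 is taken from chr19:8386347-8386406 on the minus strand and NDUFS7 from chr19:1383692-1383751 on the plus strand. NDUFAF5 is from chr20:13765521-13765580 on the plus strand, and NDUFC1 from chr4:140222660-140222719 on the minus strand. NDUFAF2 is from chr5:60241119-60241178 on the plus strand, and NDUFAF4 from chr6:97345685-97345744 on the minus strand. NDUFA4L2 is from chr12:57634346-57634405 and NDUFA11 from chr19:5903901-5903960, both on the minus strand.
NDUFA7: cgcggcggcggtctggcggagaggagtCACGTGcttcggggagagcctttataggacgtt
NDUFS7: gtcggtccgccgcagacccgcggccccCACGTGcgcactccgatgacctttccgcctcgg
NDUFAF5: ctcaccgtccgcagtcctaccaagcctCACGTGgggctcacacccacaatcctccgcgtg
NDUFC1: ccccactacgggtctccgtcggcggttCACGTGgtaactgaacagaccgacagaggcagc
NDUFAF2: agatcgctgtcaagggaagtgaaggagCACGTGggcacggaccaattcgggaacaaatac
NDUFAF4: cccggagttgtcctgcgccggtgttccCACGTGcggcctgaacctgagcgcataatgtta
NDUFA4L2: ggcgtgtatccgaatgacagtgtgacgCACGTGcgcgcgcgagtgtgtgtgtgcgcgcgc
NDUFA11: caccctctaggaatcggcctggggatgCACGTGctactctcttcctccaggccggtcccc

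Among the 7 core subunits, N-Myc stood at the promoters of NDUFS1 and NDUFS7. NDUFS1 is the large iron-sulfur subunit near the entry of the electron path, and NDUFS7 carries the cluster that hands electrons to ubiquinone. The NDUFS1 peak lay at chr2:207024008-207024823, was 816 bp wide and had its center 172.5 bp upstream of the listed start site, outside the gene. It held no canonical E-box and also lay in the listed promoter of EEF1B2, a translation elongation factor gene that starts 141 bp away in the opposite direction. The NDUFS7 peak, at chr19:1383507-1383966, was 460 bp wide and centered 145.5 bp upstream of the listed start. Its E-box, shown above, was 15 bp upstream of the peak center.

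NDUFS3, NDUFV2, NDUFV1 and NDUFS8 had no listed promoter for either protein, and their canonical start sites lay between 25.3 kb and 203.8 kb from the nearest common N-Myc peak. NDUFS3 starts at chr11:47600626 and was 25.3 kb from one, and NDUFV2 starts at chr18:9102697 and was 28.7 kb from one. NDUFV1, which binds NADH and FMN, and NDUFS8, an iron-sulfur subunit, start on chromosome 11 at 67374407 and 67798148. They were 151 kb and 203.8 kb from the nearest N-Myc peak, the farthest of these subunits.

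Of the 9 accessory subunits of the matrix arm, 5 were in the N-Myc promoter list. NDUFA7 had the E-box nearest to a peak center, 1 bp upstream of it, in a peak of 296 bp at chr19:8386228-8386523. The same peak lay in the listed promoter of RPS28, a ribosomal protein gene that starts 121 bp away in the opposite direction. NDUFA12, a paralog of the assembly factor NDUFAF2, had a peak of 371 bp at chr12:95397338-95397708, centered 34 bp upstream of the start, with 2 copies of the noncanonical E-box CACGCG and no canonical one. NDUFA6, a subunit of the LYR family, had 2 peaks, at chr22:42486604-42486972 and chr22:42485958-42486337. The first covered the start site with its center in a coding exon, and the second was centered 811.5 bp downstream in an intron. NDUFV3 had a single peak, at chr21:44312400-44313124, centered 615 bp upstream of the start and not covering it. NDUFS6, a zinc-binding subunit, was listed at chr5:1800495-1802495 although no common N-Myc peak fell in that promoter, and the nearest one was 159.5 kb from its center. NDUFA2, NDUFA5, NDUFA9 and NDUFS4 were not listed.

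The accessory subunits of the proximal membrane arm had 4 of 8 genes in the N-Myc list. NDUFA11 had the widest peak of all members, 1059 bp at chr19:5903732-5904790, and NDUFA13, also known as GRIM-19, had the narrowest, 246 bp at chr19:19626885-19627130. The NDUFA11 E-box lay 330.5 bp from the peak center, while the NDUFA13 peak had none and was centered 10.5 bp upstream of the start. NDUFC1 was listed with 3 promoters and had 1 peak, at chr4:140222310-140222871, centered in a UTR 202.5 bp upstream of the nearest listed start and shared with the promoter of the N-terminal acetyltransferase gene NAA15. NDUFS5 had a peak of 818 bp at chr1:39491839-39492656 with its center 281.5 bp downstream of the start. NDUFA3, NDUFA8, NDUFA10 and NDUFC2 were not listed.

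For the distal membrane arm, 5 of 10 genes were listed. NDUFB5 shared its peak of 658 bp at chr3:179322355-179323012 with MRPL47, which encodes a mitochondrial ribosomal protein, and the peak center fell in a coding exon. NDUFB3 shared a peak of 567 bp at chr2:201936240-201936806 with FAM126B. NDUFB7 had a peak of 252 bp at chr19:14682840-14683091 with no other listed gene. These 3 peaks covered the listed start site and held no canonical E-box. NDUFB2 differed in having 2 peaks on either side of its start and none over it, at chr7:140395727-140396121 and chr7:140396621-140396895. NDUFB9, another LYR protein, had a peak of 530 bp at chr8:125550821-125551350 with a canonical E-box 147 bp upstream of the center, shared with TATDN1. NDUFB1, NDUFB4, NDUFB6, NDUFB8 and NDUFB10 were not listed. Of these, NDUFB10 was closest to a common N-Myc peak, 1134 bp away and just outside the promoter limit.

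The assembly factors had 5 of 8 genes listed. NDUFAF1 acts in the early membrane-arm intermediate, and its peak of 803 bp at chr15:41694530-41695332 was centered 273 bp upstream of the start with no canonical E-box. NDUFAF2 had a peak at chr5:60240772-60241270 shared with ERCC8, a DNA repair gene. NDUFAF4 had a peak at chr6:97345529-97346231 with 2 canonical E-boxes, the only member peak with more than 1, shared with KLHL32. NDUFAF5, which hydroxylates NDUFS7, had a peak at chr20:13765331-13765733 with its E-box 18.5 bp downstream of the center, shared with the nucleolar gene ESF1. NDUFAF6 was listed at chr8:95906995-95908995 with no common N-Myc peak inside, the nearest one starting at 95909014, just beyond the edge. NDUFAF3, which works with NDUFAF4, and NDUFAF7 and NDUFAF8 were not listed.

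The remaining members were not bound except for NDUFA4L2, a hypoxia-inducible paralog of NDUFA4. Its peak of 795 bp at chr12:57634258-57635052 lay at an upstream start site, and the canonical start in the annotation was 3.37 kb away. NDUFA4, now counted as a complex IV subunit, NDUFAB1, the mitochondrial acyl carrier protein, and the readthrough gene NDUFC2-KCTD14, which starts 89 bp from NDUFC2, were absent from the list.

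The peaks sat close to the start sites. In the 20 genes with a common peak in a listed promoter, the median distance between the peak center and the start was 158.2 bp, beside 178 bp over 3342 genes of the genome with such a peak. The peak covered the start site in 18 of 20 (90.0%), beside 60% of those genes, with NDUFB2 and NDUFV3 as the exceptions. Its center was downstream of the start in 6 of 20 (30.0%), beside 39.4%. The 22 member peaks had a median width of 514.5 bp, beside 449 bp for 3200 N-Myc peaks at promoters of protein-coding genes. Their GC content was close to that of the others, with medians of 58.8% and 58.4%.

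**Figure D2:**
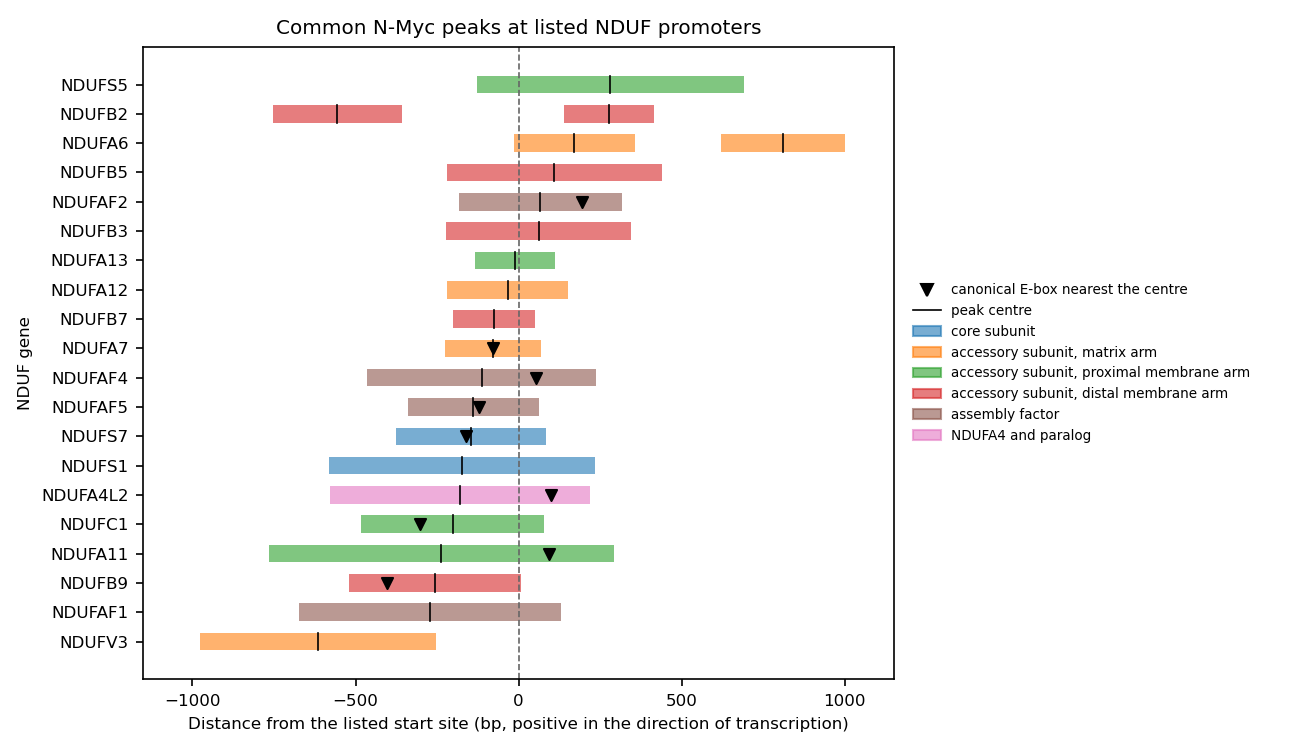
Bars span each common N-Myc peak at the 20 genes, placed by distance in bp from the listed start site (dashed line), with the peak center as a black line and the E-box nearest the center as a triangle. Peaks cover the start at 18 genes, and centers run from 615 bp upstream for NDUFV3 to 281.5 bp downstream for NDUFS5, apart from second peaks at NDUFA6 and NDUFB2.

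A canonical E-box was present in 9 of 22 member peaks (40.9%), beside 36.8% of the 3200 promoter peaks. When the whole motif had to lie within 100 bp on each side of the peak center, the share was 13.6%, beside 23.2%. The E-box of NDUFC1, whose middle is 99 bp from the center, crosses the edge of that window and is not counted in it. When the noncanonical forms CACGCG and CATGTG were added, 59.1% of member peaks had a match, beside 67.0%. The E-box content of the bound NDUF peaks was thus near that of N-Myc promoter peaks in general. The 13 peaks without a canonical E-box belonged to 11 genes, among them NDUFS1, NDUFB5 and NDUFAF1. They were 246 to 818 bp wide, with a median of 395 bp, beside a median of 530 bp for the 9 peaks with one.

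The promoter windows of bound and unbound members were then compared by sequence, from 250 bp before to 50 bp after the canonical start site, on both strands. The canonical E-box was in the window of 5 of 22 bound members (22.7%), beside 15.8% of genes in the N-Myc promoter list. These were NDUFA11, NDUFA7, NDUFAF5, NDUFAF6 and NDUFS7. The canonical starts of NDUFAF6 and NDUFA4L2 lie outside their listed promoters, so their windows do not show the bound site. The NDUFAF6 E-box, also counted within 1 kb below, is therefore not at its listed promoter. None of the 24 unbound members had the motif in the window, beside 7.11% of genes outside the list. With so few members, this difference from 7.11% was not tested. Within 1 kb of the canonical start, 13 bound members (59.1%) and 3 unbound members (12.5%) had a canonical E-box, beside 47.0% of genes in the N-Myc promoter list and 25.3% of genes outside it. The noncanonical forms were not in more bound than unbound members. In the windows from 250 bp before to 50 bp after the start, CACGCG was in 4 bound (18.2%) and 6 unbound members (25.0%). Over all genes its shares were 22.5% inside the N-Myc list and 13.6% outside it. CATGTG was in 1 bound and 1 unbound member.

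Motifs of other factors known from promoters of respiratory chain genes were found in members of either kind. The NRF1 motif, GCATGCGC, was in 8 of 46 member windows (17.4%), beside 4.18% of all genes. It occurred in 5 bound members (NDUFA6, NDUFAF4, NDUFAF5, NDUFS6 and NDUFS7) and in 3 unbound ones (NDUFA5, NDUFA8 and NDUFB4). The YY1 motif, AAGATGGC, was in 10 of 46 windows (21.7%), beside 4.02% of all genes, with 4 bound members (NDUFA6, NDUFA7, NDUFB5 and NDUFS7) and 6 unbound ones, such as NDUFA3, NDUFA9 and NDUFAF8. The ETS motif, CCGGAAG, was in 7 bound members (31.8%) and 2 unbound members (8.33%), beside 14.1% of all genes. None of these motifs contains the E-box, and a match describes the letters and not a bound site.

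**Figure D3:**
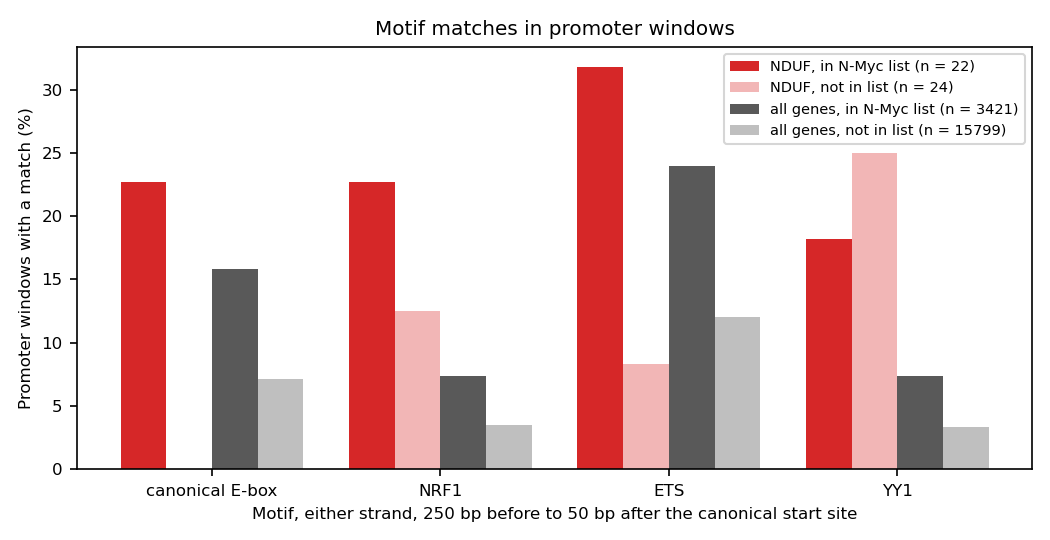
Bars give the percentage of promoter windows with at least 1 match to each motif, for 22 bound and 24 unbound NDUF genes and for 3421 and 15799 genes inside and outside the N-Myc promoter list. The canonical E-box bar is 22.7% for bound members and 0 for unbound members, beside 15.8% and 7.11% of genes inside and outside the list. The YY1 bars of the members are 18.2% and 25.0%. Windows are placed at canonical starts, which for NDUFAF6 and NDUFA4L2 lie outside the listed promoter. The noncanonical E-boxes are not drawn.

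The NRF1 matches of the 5 bound members are given with their place at the start sites, and were chosen for printing after their values were seen. Matches were sought only from 250 bp before to 50 bp after the canonical start, so all lie near it by this rule. They are 60 bases each, 5′ to 3′ on the strand of the gene in GRCh37, with the motif or its reverse complement in capitals. NDUFA6 is from chr22:42486909-42486968 on the minus strand, NDUFAF4 from chr6:97345728-97345787 on the minus strand and NDUFAF5 from chr20:13765646-13765705 on the plus strand. NDUFS6 is from chr5:1801449-1801508 and NDUFS7 from chr19:1383807-1383866, both on the plus strand. At NDUFAF4 the motif center was 9.5 bp downstream of the canonical start and at NDUFAF5 1.5 bp downstream. At NDUFS6, NDUFS7 and NDUFA6 it was 42.5 bp, 69.5 bp and 162.5 bp upstream. The matches of NDUFA6, NDUFAF4, NDUFAF5 and NDUFS7 lay inside the N-Myc peak of the gene, while the listed NDUFS6 promoter held no common N-Myc peak.
NDUFA6: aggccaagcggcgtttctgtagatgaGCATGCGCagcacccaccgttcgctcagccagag
NDUFAF4: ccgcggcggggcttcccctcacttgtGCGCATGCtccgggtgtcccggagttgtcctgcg
NDUFAF5: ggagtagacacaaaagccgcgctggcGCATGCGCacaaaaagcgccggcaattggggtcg
NDUFS6: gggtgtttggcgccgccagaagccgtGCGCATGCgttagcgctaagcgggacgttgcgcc
NDUFS7: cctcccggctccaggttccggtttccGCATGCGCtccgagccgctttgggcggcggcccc

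Promoter type also moved with N-Myc binding across the genome. A protein-coding gene started within 1 kb in the opposite direction at 20 of 46 members (43.5%), beside 13% of all genes. Among genes with such a partner, 35.6% were in the N-Myc promoter list, beside 10 of 20 members (50%). Among genes with CpG-rich windows, at an observed over expected ratio of at least 0.6, it was 24.0%, beside 20 of 42 members (47.6%). The share of bound members was above the background in both groups, but the 20 members with a partner are too few to read much from their share. One of the 10 bound members with a partner, NDUFS6, held no common N-Myc peak in its listed promoter. Genes with both traits were not compared, and the part of promoter type was not tested. The partner was itself in the N-Myc list at 9 of the 10 bound members with one, and at 0 of the 10 unbound members with one, and since promoters of partners overlap, a single peak can put both genes on the list. The exception was NDUFS6, whose partner MRPL36 was not listed.

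The bound members were spread over many chromosomes. On chromosome 19, 5 of 6 members were listed, beside 16.3% of 1480 genes on that chromosome. These 5, NDUFS7, NDUFA11, NDUFA7, NDUFB7 and NDUFA13, have separate peaks, and NDUFA3 was the unbound one. On chromosome 11, none of 5 members was listed, beside 16.5% of genes, and 2 of the 5, NDUFC2 and NDUFC2-KCTD14, share a promoter region.

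Other genes of the respiratory chain were counted in the same list. Several of them appear there only under an older symbol, so these counts used current or older symbols, with 18.3% of all genes listed on that rule and the NDUF count still at 22. Among complex I assembly factors outside the NDUF family, 6 of 11 were listed, with ACAD9, DMAC1 and ECSIT as examples. The lists of complexes II to V hold assembly factors as well as subunits. Complex II had 3 of 8 (SDHAF3, SDHB and SDHD). Complex III had 6 of 15, the assembly factors BCS1L, UQCC1 and UQCC3 and the subunits UQCR10, UQCR11 and UQCRH. Complex IV, cytochrome c oxidase, had 7 of 29, among them the assembly factors COX10, COX11 and COX16. Subunit genes of complex IV such as COX4I1, COX5A and COX6C were not listed. Complex V, the ATP synthase, had 6 of 22, among them ATP5F1A, ATP5MC1 and ATP5MC2. Over these 84 genes, 28 were listed (33.3%), a share between that of all genes and that of the NDUF genes.

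**Figure D4:**
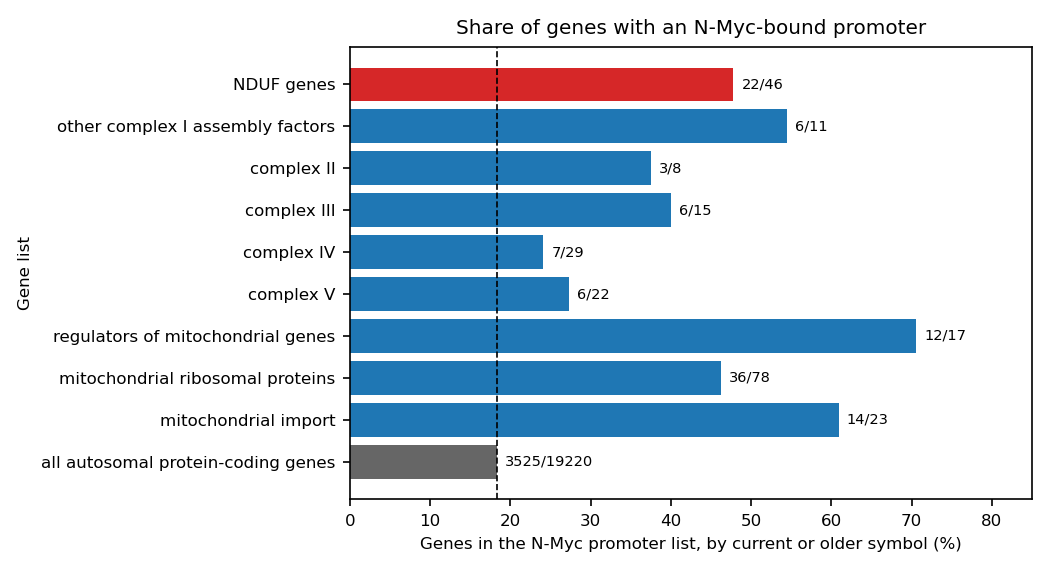
Bars give the percentage of genes in each list with an N-Myc-bound promoter by current or older symbol, with counts beside them and a dashed line at the 18.3% of all autosomal protein-coding genes. The NDUF bar, 22 of 46, lies above those of complexes II to V and near that of mitochondrial ribosomal proteins, 36 of 78.

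Gene groups for the expression of the mitochondrial genome, its translation and protein import were counted too, with no test of their differences from the NDUF genes. N-Myc was listed at 36 of 78 mitochondrial ribosomal protein genes (46.2%), at 14 of 23 import genes of the TIMM and TOMM families (60.9%), and at 12 of 17 genes for transcription and regulation of mitochondrial genes (70.6%). The last group included TFAM, POLRMT, TFB1M and TFB2M, of which TFAM, POLRMT and TFB2M start transcription of mitochondrial DNA and TFB1M modifies the ribosomal RNA made from it. JMJD6 was listed at 1 gene in each of 3 groups, COX14 in complex IV, TIMM21 in import and PPRC1 among the regulators. Complex I was thus 1 of several mitochondrial gene groups with N-Myc at a larger share of promoters than the 18.3% of all genes.

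Typical enhancers bound by N-Myc were assigned, as nearest gene, to 20 NDUF genes (43.5%), beside 31.2% of all genes. They were 24 regions of 638 to 28490 bp, with a median of 2008 bp, and 15 of them overlapped the listed N-Myc promoter of the gene itself. The study's methods state that H3K27ac peaks within 1 kb of start sites were subtracted, and why these regions still reach promoters was not tested. Of the 20 genes, 16 also had an N-Myc promoter, so the enhancer and promoter entries are largely the same places. NDUFA2, NDUFAB1, NDUFC2 and NDUFS3 had an enhancer and no bound promoter, and in each of these 4 cases the enhancer overlapped listed promoters of other genes. The region assigned to NDUFS3, the longest of the 24, lay at chr11:47572932-47601421 over the CELF1 promoter. It contained 2 common N-Myc peaks and reached past the NDUFS3 start site, although no common N-Myc peak was nearer to that start than 25.3 kb.

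Enhancers that overlapped no listed N-Myc promoter were assigned to 4 members. No share of all genes is given for this rule, so the count is read as neither high nor low. They lay 14.6 kb from the start of NDUFAF6, 31.1 kb from NDUFB2, 231.5 kb from NDUFA12 and 317.7 kb from NDUFAF4, by the listed distances. Another nearest gene was given for each of them, such as BRAF beside NDUFB2 and TMCC3 beside NDUFA12.

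NDUFB9 was the only member assigned N-Myc-bound super-enhancers, beside 1.32% of all genes. Its 2 regions, of 51878 bp at chr8:125610269-125662146 and of 25956 bp at chr8:125677214-125703169, were 84.9 kb and 138.8 kb from the gene, and each held 1 common N-Myc peak. Both were also assigned to MTSS1, an actin-binding protein gene, which was the closer gene for the second region, at 50479 bp, and the more distant one for the first, at 104463 bp. No member was assigned a JMJD6-bound typical enhancer, beside 0.900% of all genes, or a JMJD6-bound super-enhancer, beside 0.0780%. The limit of 6.52% for 0 of 46 again lies above these backgrounds.

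Distances to the nearest common peak were taken from the canonical start site of each member. The same distances over all genes are not given, so those of the members are read as neither short nor long. The JMJD6 list holds only 561 common peaks. Of the 24 unlisted members, 1 had a common N-Myc peak within 5 kb and 12 had one within 100 kb, with a median distance of 80.9 kb and a maximum of 936.4 kb for NDUFA9. For JMJD6 the median over all members was 3983 kb, and only NDUFB8 had a peak within 100 kb. That peak, at chr10:102241025-102242080 in the WNT8B gene, was 47.5 kb from the NDUFB8 start and did not overlap an N-Myc peak. NDUFS8, at 102.2 kb, and NDUFA13, at 130.4 kb, came next, and the NDUFA13 promoter was bound by N-Myc while those of NDUFB8 and NDUFS8 were not.

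**Figure D5:**
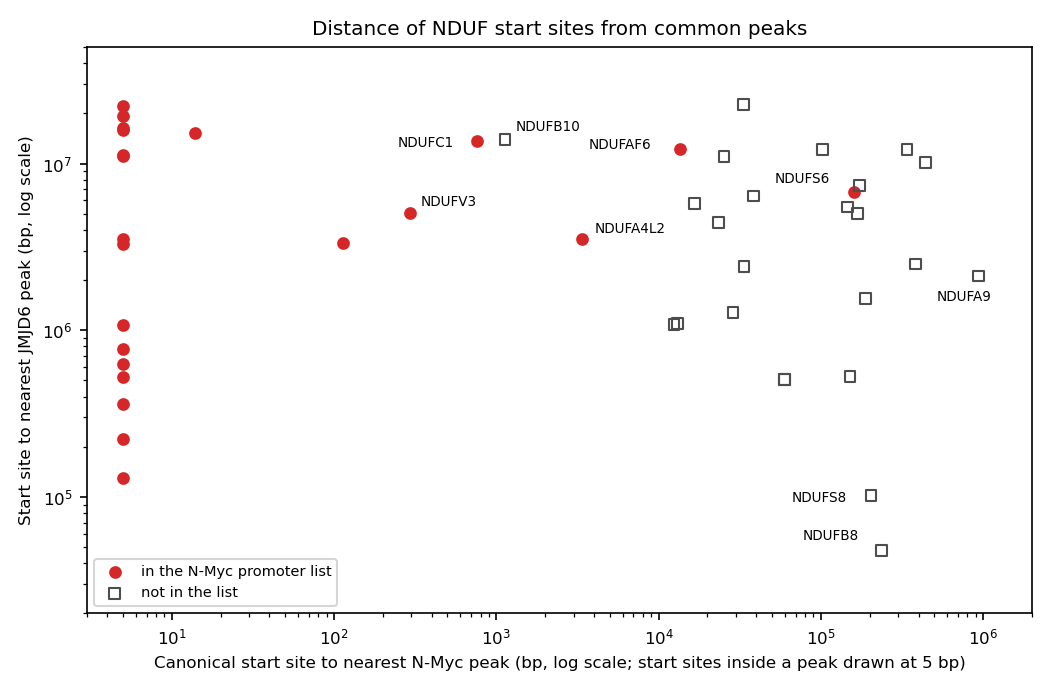
Each point is 1 of the 46 NDUF genes, placed by the distance in bp from its canonical start site to the nearest common N-Myc peak (x, log scale, start sites inside a peak drawn at 5 bp) and to the nearest JMJD6 peak (y, log scale). Genes in the N-Myc promoter list (filled circles) lie within 1 kb of an N-Myc peak apart from NDUFA4L2, NDUFAF6 and NDUFS6, and NDUFB8 is nearest to a JMJD6 peak at 47.5 kb.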

How the data were processed

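ChIP-Seq of N-Myc and JMJD6 in CHP-134 cells was grouped by the antibody in the labels, with 3 samples each. According to the study's methods, the authors aligned reads with BWA, called peaks with MACS2 2.1.1.20160309 against input at a q-value maximum of 0.05, and kept what was found in all 3 replicates. Promoters were 1 kb on each side of RefSeq start sites. Enhancers came from ROSE on H3K27ac data, after subtraction of H3K27ac peaks within 1 kb of start sites, with nearest genes assigned to them. The 12 deposited files hold positions in bp and gene symbols, with replicates merged. They hold no height, score or count, so the precision of an entry is unknown. The study states a minimum read number per sample, which was not used here.

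The members and gene lists were chosen with earlier results of these data known. Genes were matched by symbol to GENCODE version 44 on GRCh37. Of 4149 symbols in the N-Myc promoter list, 3421 matched an autosomal protein-coding gene and 104 more did so by an older symbol. All 25 listed promoters of members were on the strand of the gene, and 23 had their center at most 100 bp from a start site of the annotation, the farthest being at 263 bp. Peaks were taken as overlapping at 1 bp or more. Sequences and motifs were read from GRCh37 on both strands. NDUF genes were accounted for by name or in counts, with positions given for bound members and core subunits, and 1 member counted among them is not reported here by name. The backgrounds of CpG-rich and divergent promoters were added after the data were seen, as were the NRF1 sequences. No test was run. The procedures were tested on simulated data. Python 3.11.15, pysam 0.24.0, numpy 2.4.6 and matplotlib 3.10.9 were used. X-linked NDUF genes were not analysed here.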

Additional observations from a re-analysis of the deposited data

Results flagged for a closer look

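The 7 complex I genes encoded in mitochondrial DNA lie outside the nuclear members, and peaks there were part of no comparison. A common JMJD6 peak overlapped all 7 of them, and a common N-Myc peak overlapped 6, all but MT-ND6. These genes lie close together, with 1 or 2 JMJD6 peaks and at most 1 N-Myc peak over each, so they are not independent counts. There is no control list to set them against. Which version of the mitochondrial sequence the authors aligned to is not given in the sources used here, so no coordinates are printed, and the source of this signal was not tested.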

How the results depend on the processing

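Of 40 alternative values for 9 results, 37 stayed within 1.5 times the reported value. Placing N-Myc peaks by position in place of symbols gave 19 to 22 bound NDUF genes with any peak width. With only peaks at least as wide as the median of 418 bp, it gave 14 (30.4%), beside 12.5% of all genes. Leaving out enhancers that overlapped a listed N-Myc promoter reduced the genes with a typical enhancer from 20 to 4, with no share of all genes given for that rule. The share of member peaks with a canonical E-box was 40.9% over whole peaks and 13.6% when the whole motif had to lie within 100 bp on each side of the peak center. NDUFS6 was lost under every placement by position, NDUFAF6 under 3 of the 6, and NDUFA4L2 when only the canonical start was used. As alternatives chosen after seeing the data, requiring a common peak in the listed promoter gave 20 of 46 members (43.5%), beside 17.4% of all genes, and leaving out the readthrough gene gave 22 of 45 (48.9%). JMJD6 stayed at 0 members under all alternatives run. No paired analysis was possible because the lists merge the replicates and have no column per sample, and no replicate could be left out for the same reason. Peak width was the only stand-in for a stricter peak threshold, and the lists give no depth.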
